A study of Bos taurus with 16 samples.

Results

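CISH (ENSBTAG00000022622), the gene of the cytokine-inducible SH2-containing protein CIS, was examined in every liver and muscle library of this series. It is 1 of the 27607 gene IDs in the deposited table. It was chosen as a target of growth hormone signalling, with its values in these same libraries known, so the levels of CISH and its differences between groups or organs are given as descriptions without a test.

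CIS is an adaptor with an SH2 domain and a SOCS box. Transcription of CISH is switched on by the transcription factor STAT5 after growth hormone, prolactin, erythropoietin or interleukin-2 has activated its receptor and the kinase JAK2 or its relatives, and the protein then restrains signalling from those receptors, a negative feedback. The liver is a main target organ of growth hormone, where the same route drives the production of IGF-1 and of the proteins that carry it in blood, and skeletal muscle also responds to growth hormone.

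The samples came from 8 Holstein bull calves, euthanized at about 3 months of age, with the right lobe of the liver and the semitendinosus muscle taken from each. There were 4 calves of embryos produced in vitro (IVP). Their oocytes were collected by ovum pick-up after a mild hormonal stimulation of the donor, then fertilized and cultured in serum-free medium. The other 4 calves came from embryos collected after superovulation of the donor and transferred (MOET). The labels give no other treatment and no allele. The comparison asks whether the origin of the embryo is seen in the level of the transcript months after birth. All 4 IVP calves and MOET calves 3217 and 3218 had the same dam, and IVP calves 3208 and 3209 also shared the sire with these MOET calves. IVP calves 5833 and 5841 came from another sire, and MOET calves 3213 and 5932 from another dam and a sire each, so that parents and embryo origin are in part the same split.

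The deposited counts, which the authors had adjusted for age, summed to 22758137 to 24667728 in a liver library and to 23677247 to 25626474 in a muscle library. MOET calf 3213 was 144 days old and the other calves 98 to 104 days. Its library stood closer to the mean of the other MOET calves than any of them did, with a median absolute log2 deviation of 0.0354 against 0.141 to 0.159 over 8398 liver genes, and of 0.0754 against 0.121 to 0.182 over 6328 muscle genes. It was therefore left out of means and SDs, which cover 4 IVP and 3 MOET calves, while the fits used all 8 calves with age as covariate. Transcripts of the named hepatocyte markers (APOA1, APOA2 and TTR, 3 of 8 listed) summed to 7107 to 17776 CPM (counts scaled to a common library size, by TMM within the organ) in liver and to 0.972 to 36.8 CPM in muscle. Those of the named muscle fibre markers (ACTA1, MYH2, MYH7 and TNNT3, 4 of 8 listed) summed to 105954 to 140154 CPM in muscle and to at most 0.694 CPM in liver, so the labelled organs carried their own defining transcripts.

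CISH was higher in the liver of IVP calves. It had 1129, 1612, 1167 and 1078 counts in the liver of IVP calves 3208, 3209, 5833 and 5841, and 547, 615 and 447 counts in that of MOET calves 3217, 3218 and 5932. As normalized values these were 46.2, 69.9, 53.0 and 53.0 CPM in the IVP calves and 22.7, 25.1 and 17.1 CPM in the MOET calves. The groups did not overlap, as in 33.1% of all liver genes, and the lowest IVP calf lay 1.84-fold above the highest MOET calf. Calf 3213, with 543 counts and 21.4 CPM, lay inside the range of the other MOET calves.

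**Figure D1:**
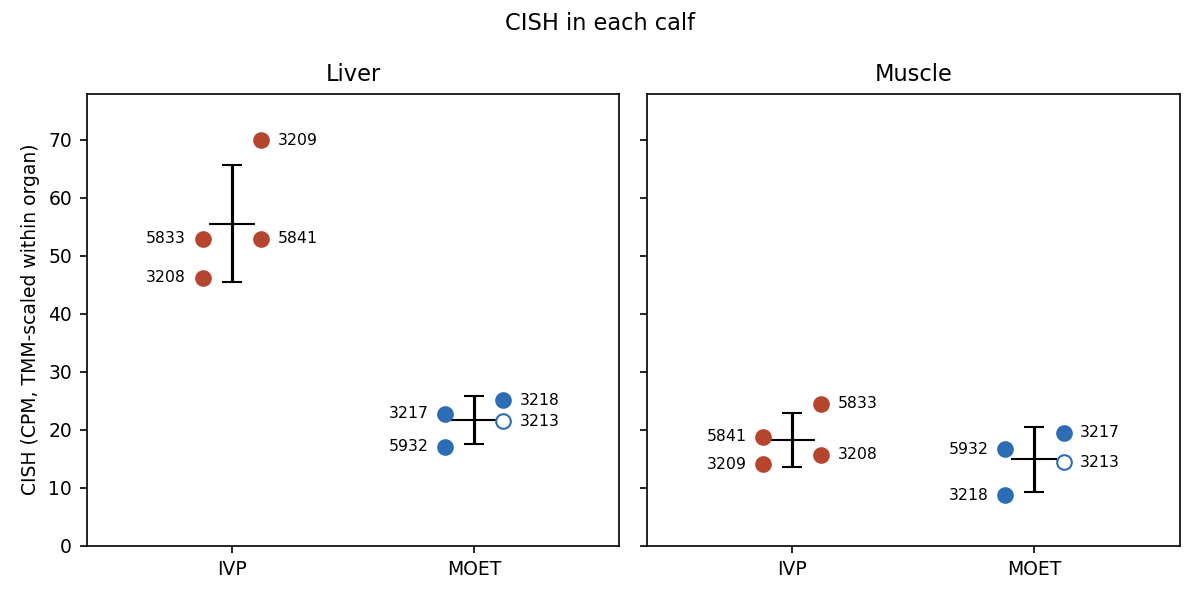
CISH in CPM (scaled by TMM within each organ) in the liver and the muscle of each calf, with 1 point per calf and calf numbers beside the points. Horizontal bars are group means and vertical bars SDs over 4 IVP and 3 MOET calves, and the open point is MOET calf 3213, which is outside the mean. In liver the IVP calves lie between 46.2 and 69.9 CPM, above all MOET calves, while the groups overlap in muscle.

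The mean level of CISH was 55.5 ± 10.1 CPM (SD, n = 4) for IVP liver and 21.6 ± 4.13 CPM (SD, n = 3) for MOET liver, a ratio of 2.57. In relative terms CISH varied about as much in either group, with a coefficient of variation of 18.2% among IVP and 19.1% among MOET calves. Counting error was a small part of that spread, since the counts of a liver library allow an SD of 2.49% to 4.73% from counting alone. Calf 3209 carried the highest liver value and calf 5932 the lowest. The ratio of the means was 2.31 in CPM without the TMM scaling.

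The fitted log2 fold change of CISH in liver, IVP against MOET, was 1.36 (standard error 0.189) from edgeR's quasi-likelihood model with age as covariate. Ordered by this value, from the most positive down, CISH stood at place 82 of the 14290 genes tested. A fold change of at least this size in either direction was fitted for 1.95% of the liver genes. The lowest of the 4 IVP calves was above the highest of the 3 MOET calves in 16.3% of the liver genes, so that this ordering alone did not set CISH apart. The median log2 fold change over all liver genes was -0.0040, a value that the scaling within the organ holds near 0, so the change of CISH is relative to it.

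The liver difference was also present between calves of the same dam and sire. IVP calves 3208 and 3209 averaged 2.43-fold the level of MOET calves 3217 and 3218, and the fit over these 4 calves without age gave a log2 fold change of 1.28 (standard error 0.206). Among IVP calves, the pair from the other sire (5833 and 5841) had nearly equal values, both between those of calves 3208 and 3209. Among MOET calves, 5932 with other parents was the lowest.

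Values of other cell types differed between the liver groups too. The named fibroblast markers (4 of 5 listed) summed to 499.4 to 659.7 CPM in IVP and 793.8 to 843.0 CPM in MOET liver, and the named endothelial markers CDH5 and VWF (2 of 5) to 76.9 to 95.1 CPM and 99.7 to 125.0 CPM. CSF1R, a receptor of macrophages and the only leukocyte marker of 16 with a name here, had 175.8 to 206.1 CPM in IVP and 153.9 to 169.4 CPM in MOET liver, and the hepatocyte markers had 11563 to 17776 CPM and 7107 to 9005 CPM. These sums did not overlap between the groups, but some single markers did. Of all single liver genes 33.1% did not overlap either, over 4 IVP and 3 MOET calves. CDH5 and VWF overlapped when taken singly, and the fibroblast marker DCN overlapped too, with means of 170.1 CPM for IVP and 168.6 CPM for MOET liver. Their part in the difference of CISH was not tested. The erythroid, bile duct and adipocyte markers (0 of 5, 0 of 4 and 0 of 5 named) were not analysed here. In pieces of whole organ, more CISH transcript per cell and more cells that carry it cannot be told apart.

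In muscle CISH was lower than in IVP liver and did not part the groups. The muscle of IVP calves 3208, 3209, 5833 and 5841 gave 384, 329, 672 and 509 counts, and that of MOET calves 3217, 3218 and 5932 gave 467, 207 and 445 counts. The normalized values were 15.7, 14.0, 24.4 and 18.8 CPM in IVP and 19.5, 8.68 and 16.6 CPM in MOET calves, with 14.4 CPM (337 counts) in calf 3213. MOET calf 3217 lay above 3 of the 4 IVP calves, and MOET calf 3218 lay below all other calves. The means were 18.2 ± 4.58 CPM (SD, n = 4) and 14.9 ± 5.59 CPM (SD, n = 3), a ratio of 1.22 that is smaller than the spread within either group.

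The fitted log2 fold change in muscle was 0.29 (standard error 0.258), at place 2579 of 12854 genes, and 33.2% of the muscle genes had a fitted change at least as large in either direction. Its size rested on single calves. Without MOET calf 3218 it was 0.0014, without IVP calf 5833 it was 0.11, and without MOET calf 3217 it was 0.54. Between the calves of the same dam and sire the ratio of the means was 1.06 and the log2 fold change 0.08 (standard error 0.310). The median over all muscle genes was 0.018. The counts of a muscle library allow a counting SD of 3.86% to 6.95%, well under the coefficients of variation of 25.1% in IVP and 37.4% in MOET muscle, so the spread of CISH between muscle samples was larger than counting error.

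**Figure D2:**
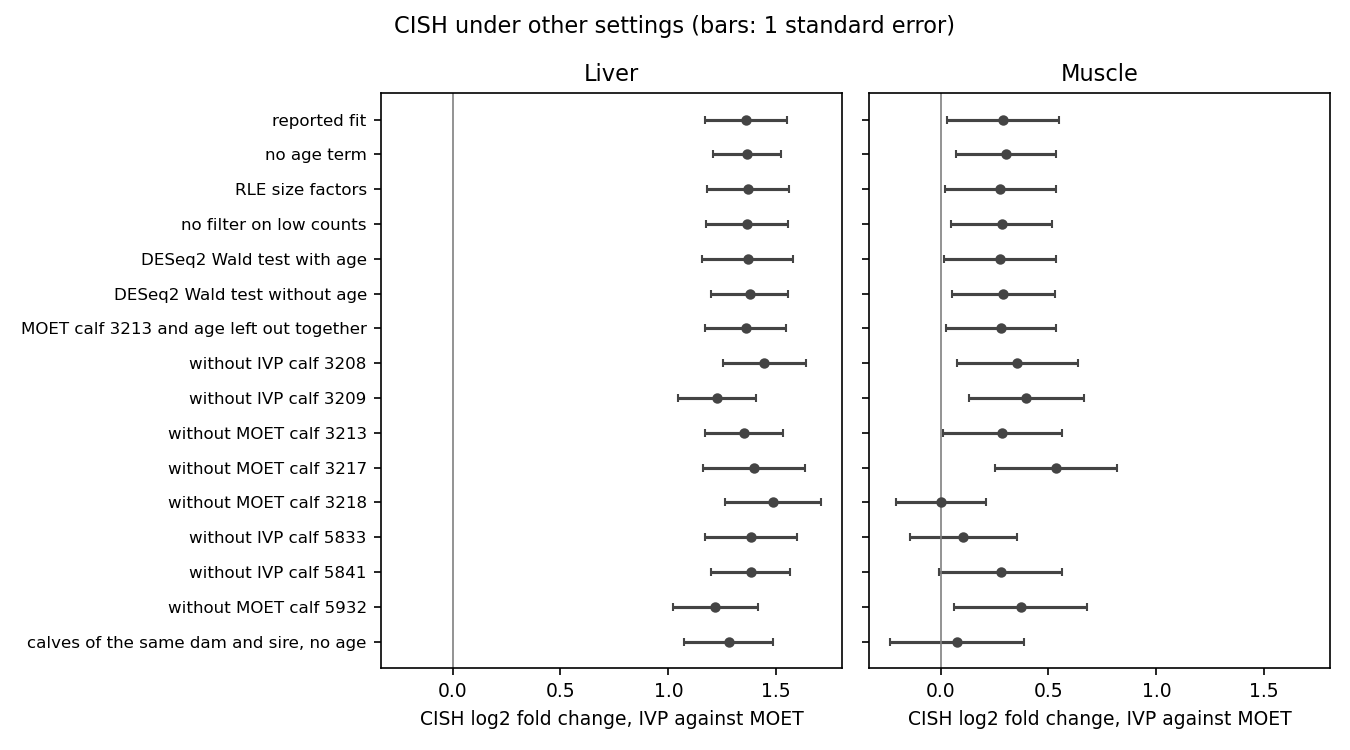
Fitted log2 fold change of CISH, IVP against MOET, in liver and in muscle under the reported fit and 15 alternatives, with bars of 1 standard error. The liver values lie between 1.22 and 1.48, and the muscle values between 0.0014 and 0.54, with the lowest after leaving out MOET calf 3218.

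In liver the fitted change of CISH stayed positive under every alternative. The plot of fitted changes under other settings shows a liver range of 1.22, without MOET calf 5932, to 1.48, without MOET calf 3218. Leaving out the age term, or replacing edgeR with DESeq2, gave 1.36 to 1.38. The pooled SD of the log2 CPM of CISH within groups was 0.27 in liver and 0.48 in muscle.

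The fitted difference of the IVP against MOET change, muscle minus liver, was -1.10 for CISH (standard error 0.347), from a fit over all 16 libraries with age within each organ. It lay between -1.51 and -0.86 under the alternatives, and with the calf as a block it was -1.08 (standard error 0.320). The same calf could stand high in one organ and low in the other. Calf 3209 had the highest CISH of the IVP calves in liver and the lowest in muscle. Calf 3218 had the highest CISH of the MOET calves in liver and the lowest of all calves in muscle.

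The order of the organs could be read only in part, because it depends on how 2 organs of very different composition are scaled. In CPM without TMM, CISH had means of 52.5 CPM in IVP liver (45.9 to 67.2 over 4 calves), 22.7 CPM in MOET liver (19.2 to 24.9 over 3), 18.7 CPM in IVP muscle (13.1 to 26.5) and 14.8 CPM in MOET muscle (8.23 to 18.4). With TMM over all 16 libraries the order was IVP liver with 44.1 ± 8.01 CPM (SD), IVP muscle with 22.8 ± 5.42 CPM, MOET muscle with 19.0 ± 7.00 CPM and MOET liver with 17.0 ± 3.31 CPM. IVP liver was first on either scale and its calves did not overlap with any other group. The order of the other 3 groups changed with the scale. They overlapped with TMM over all libraries, while without TMM MOET liver lay above MOET muscle and only the other pairs among them overlapped.

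Within the calf, the level of CISH in liver relative to muscle was 1.90-fold to 5.12-fold in the IVP calves without TMM and 1.39-fold to 3.11-fold with TMM over all libraries. In MOET calves 3217 and 5932 it was 1.30-fold and 1.08-fold without TMM and 0.723-fold and 0.639-fold with it, a change of direction. MOET calf 3218, with its low muscle value, had ratios of 3.03 and 1.77, in the range of the IVP calves.

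Genes of the pathway in which CIS acts were taken from lists of 82 symbols, of which 23 besides CISH are paired with a gene ID. The pairs of name and ID stand in supplementary tables of genes that were selected in part on these libraries, so their counts and directions are not independent evidence. STAT5A, STAT5B, IGF1, IGF2 and the relatives of CISH from SOCS1 to SOCS7 were not analysed here. In liver 13 of the 23 genes had an unadjusted p under 0.05 (edgeR's quasi-likelihood test), which is 56.5% of the list against 29.8% of all liver genes. Of these, 5 were higher and 8 lower in IVP calves, against 14.8% and 15.0% of all liver genes. Without MOET calf 5932 the count was 6, and between the calves of the same dam and sire it was 8. Over all liver genes such a p was found for 2228 of 14404 and 2487 of 14390 genes in these fits, against 4253 of 14290 in the reported fit. None of the 23 passed an FDR of 0.05 in liver by edgeR, against 0.035% of all genes, while DESeq2 with age passed 8 of them and DESeq2 without age 14. Over all 14290 liver genes DESeq2 passed 1588 with age and 4657 without. The list's median log2 fold change in liver was -0.23, opposite in sign to the 1.36 of CISH.

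**Figure D3:**
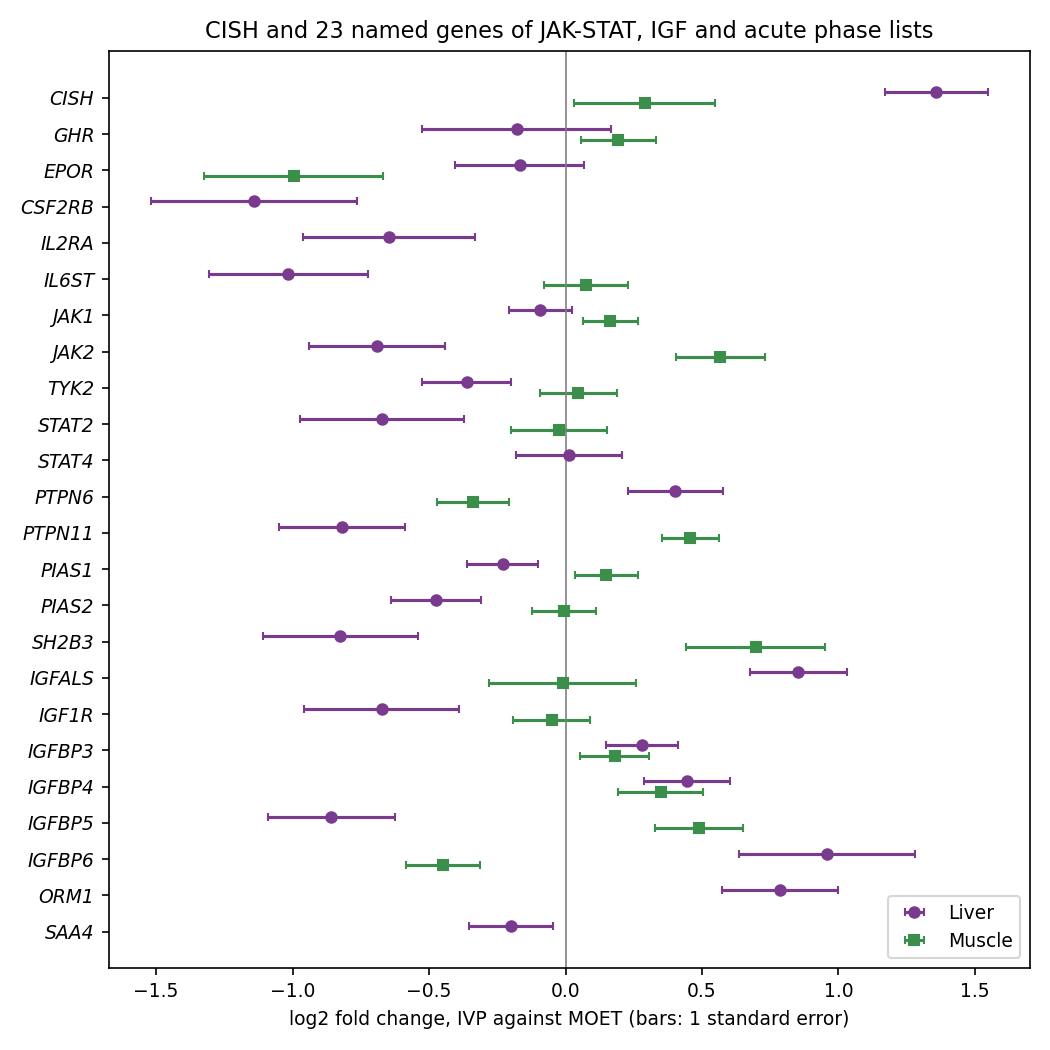
Fitted log2 fold change, IVP against MOET, of CISH and the 23 named genes of the pathway lists in liver (circles) and muscle (squares), with bars of 1 standard error. Genes without a square had too few counts to be tested in muscle. CISH has the largest liver value of the genes shown (1.36). All 5 receptor genes (GHR, EPOR, CSF2RB, IL2RA, IL6ST) lie below 0 in liver, GHR and EPOR by less than 1 standard error. Over all 14290 liver genes, 7095 had a positive value.

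Of 14 listed receptors 5 have a name here, and all 5 had a negative log2 fold change in liver, 2 of them with an unadjusted p under 0.05 (IL6ST and CSF2RB) and none with an FDR under 0.05. Over all 14290 liver genes, 7095 had a positive value. GHR and EPOR (-0.17, standard error 0.238) lay within 1 standard error of 0. GHR, the growth hormone receptor, had 372.6, 239.5, 339.3 and 116.2 CPM in IVP calves 3208, 3209, 5833 and 5841, and 362.7, 317.4 and 244.3 CPM in MOET calves 3217, 3218 and 5932. These ranges overlapped, and edgeR fitted a log2 fold change of -0.18 with a standard error of 0.348 and an FDR of 0.741. IVP calf 5841 had the lowest GHR of all calves and the same CISH level as calf 5833. Its liver was also the lowest in IL6ST (25.0 CPM), CSF2RB (2.65 CPM) and JAK2 (2.90 CPM). IL6ST, the signal-transducing receptor chain of the interleukin-6 family, had a log2 fold change of -1.02 (FDR 0.125), and CSF2RB, the shared beta chain of the receptors for GM-CSF and interleukin-3, one of -1.14 (FDR 0.127). In both, all IVP calves lay below all MOET calves, the reverse of CISH, as in 16.7% of all liver genes.

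JAK2, the kinase bound to the growth hormone receptor, was also lower where CISH was higher. Its liver values were 5.98, 5.51, 5.99 and 2.90 CPM in IVP calves 3208, 3209, 5833 and 5841, and 9.31, 7.26 and 8.55 CPM in MOET calves 3217, 3218 and 5932. The log2 fold change of JAK2 in liver was -0.69 (standard error 0.249, unadjusted p = 0.0219, FDR 0.131 from edgeR). The other kinases and STATs with a name had log2 fold changes of -0.67 (STAT2), -0.36 (TYK2), -0.09 (JAK1) and 0.01 (STAT4) in liver, with p above 0.05.

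Other inhibitors of the pathway did not follow CISH as a group in liver. SH2B3, the adaptor LNK that restrains JAK2, had a log2 fold change of -0.83 (FDR 0.128 from edgeR). PTPN11, the phosphatase SHP2, which signals downstream of many receptors, had one of -0.82 (FDR 0.125), and PIAS2, which binds STATs and has SUMO ligase activity, one of -0.48 (FDR 0.129). PTPN6, the phosphatase SHP1 that dampens JAK signalling, had one of 0.40 (FDR 0.163), in the direction of CISH.

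IGFALS, the acid-labile subunit that holds IGFs in the circulation, is a liver product induced by growth hormone through STAT5, and the only gene of the list of STAT5 targets with a name. Its liver values were 281.0, 256.6, 297.5 and 218.0 CPM in IVP calves 3208, 3209, 5833 and 5841, and 148.2, 175.8 and 115.0 CPM in MOET calves 3217, 3218 and 5932. As for CISH and 16.3% of all liver genes, the lowest IVP calf was above the highest MOET calf. The log2 fold change of IGFALS was 0.85 with a standard error of 0.178 by edgeR (unadjusted p = 0.00102, FDR 0.125), and its FDR was 0.00145 by DESeq2 with age and 1.25e-05 to 0.382 over all alternatives. Within the MOET calves CISH and IGFALS gave the same order, 3218 above 3217 above 5932. Within the IVP calves they did not, since calf 3209 was highest in CISH and below calves 3208 and 5833 in IGFALS.

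**Figure D4:**
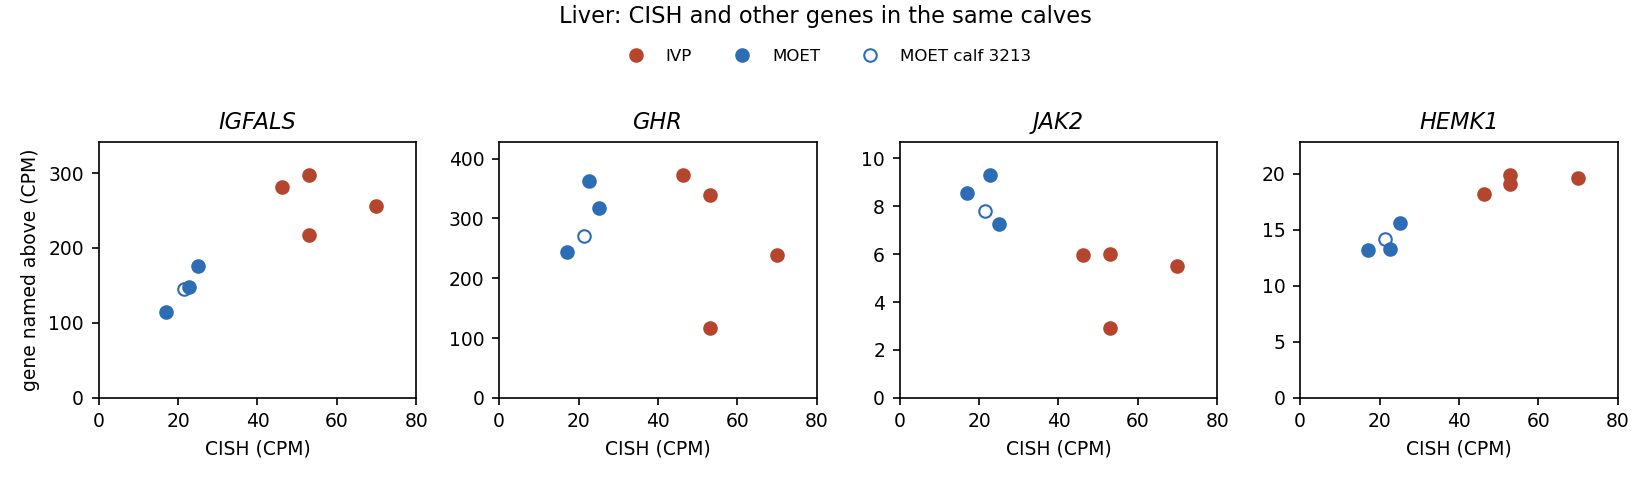
Levels of IGFALS, GHR, JAK2 and HEMK1 (vertical axes, CPM scaled by TMM) against that of CISH (horizontal axes, CPM) in the liver of each calf, with 1 point per calf and the open point for MOET calf 3213. The gap in CISH between 25.1 and 46.2 CPM parts the groups in every panel, IGFALS and HEMK1 are higher and JAK2 lower in the IVP calves, and GHR overlaps.

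Of the binding proteins of the IGF axis, IGFBP6 (0.96, FDR 0.127 from edgeR) and IGFBP4 (0.44, FDR 0.130) had log2 fold changes of the sign of CISH in liver, and IGFBP5 (-0.86, FDR 0.125) and the receptor gene IGF1R (-0.67, FDR 0.156) of the other sign. IGFBP3, the main carrier of IGFs with IGFALS, had 0.28 (unadjusted p = 0.0627). Of the acute phase genes, ORM1, the plasma glycoprotein orosomucoid, had 0.79 (FDR 0.125), and SAA4 had -0.20.

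In muscle the list had 18 genes that could be tested, with a median log2 fold change of 0.11. Of them 8 had an unadjusted p under 0.05 by edgeR's quasi-likelihood test, which is 44.4% against 19.8% of all muscle genes. There were 5 higher and 3 lower in IVP calves, against 11.4% and 8.43% of all muscle genes. Without MOET calf 3218 the count was 5, and 1606 of all 13049 genes had such a p. No list gene passed an FDR of 0.05 in muscle by edgeR, against 0.467% of all genes, while DESeq2 passed 1 with age and 6 without. Over all 12854 muscle genes DESeq2 passed 468 with age and 1619 without. JAK2, lower in IVP liver, had 4.50, 4.60, 4.95 and 5.09 CPM in the muscle of IVP calves 3208, 3209, 5833 and 5841 and 3.79, 3.27 and 2.58 CPM in that of MOET calves 3217, 3218 and 5932. The IVP calves lay above the MOET calves, as in 10.4% of all muscle genes, and the log2 fold change of JAK2 in muscle was 0.57 (standard error 0.164, FDR 0.114 from edgeR), beside the 0.29 of CISH there. PTPN11 (0.46, FDR 0.0755), SH2B3 (0.70, FDR 0.173), IGFBP5 (0.49, FDR 0.144) and IGFBP4 (0.35, FDR 0.245) were on the same side. IGFBP6 (-0.45, FDR 0.125) and PTPN6 (-0.34, FDR 0.198) were on the other, as was EPOR, the erythropoietin receptor, with 1.68, 1.41, 0.982 and 0.516 CPM in IVP and 1.96, 2.73 and 2.24 CPM in MOET calves in the order above (FDR 0.144), with all IVP calves below the MOET calves, as in 8.66% of all muscle genes (19.0% had no overlap in either direction). GHR had a log2 fold change of 0.19 (FDR 0.459) in muscle. IGFALS had 0.75 to 1.20 CPM in every muscle library, and its muscle value (-0.01) rests on low counts. The muscle groups also differed in markers of cell types. The endothelial markers summed to 85.2 to 139.2 CPM in IVP and 71.8 to 79.1 CPM in MOET muscle, the fibroblast markers to 808.2 to 1153 CPM and 1295 to 1624 CPM, and CSF1R to 4.74 to 10.9 CPM and 7.54 to 9.18 CPM. Of the fibre markers, MYH7, the slow myosin heavy chain, had a mean of 8635 CPM in IVP and 2729 CPM in MOET muscle, and MYH2, a fast one, of 13663 CPM and 7809 CPM, while ACTA1 and TNNT3 overlapped. Their part in the values of CISH and of the pathway genes in muscle was not tested.

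The change between the groups differed between the organs for 7 of the 23 genes, against 8.99% of all genes, when edgeR's quasi-likelihood test over 16 libraries was read at an FDR of 0.05. The difference, muscle minus liver, was 1.24 for PTPN11 (FDR 0.0280), 1.22 for JAK2 (FDR 0.0371), 1.49 for SH2B3 (FDR 0.0395), 1.31 for IGFBP5 (FDR 0.0335) and 1.95 for IL2RA (FDR 0.0379), the opposite sign to the -1.10 of CISH. It had the sign of CISH in IGFBP6 (-1.44, FDR 0.0360) and PTPN6 (-0.77, FDR 0.0480). IL2RA, a chain of the interleukin-2 receptor, was below the count filter in muscle and rests on 4 to 30 counts a library. With the calf as a block the same 7 genes and IGFALS (-0.93, FDR 0.0181) and IL6ST (1.12, FDR 0.0272) passed, and with an age term in muscle added to the block, 4 did (PTPN11, JAK2, SH2B3 and IGFBP5). Over all 15237 genes 3491 passed with the block and 713 with the age term added. None of the 7 calls held without IVP calf 3209 or 5833, or without MOET calf 3217, 3218 or 5932. Over all genes the calls fell from 1370 of 15237 to 43, 77, 1, 0 and 0 in these fits, so the loss was not particular to the pathway genes.

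On the chromosome, the RefSeq gene order (assembly ARS-UCD2.0) places CISH between MAPKAPK3 and HEMK1, with DOCK3 and C22H3orf18 next on either side. None of these overlaps CISH in that annotation, which differs from the Ensembl annotation of bosTau9 on which the authors counted reads without strand. HEMK1, which encodes a glutamine methyltransferase, was the only one of them with a name here. It had 18.2, 19.7, 19.1 and 19.9 CPM in the liver of IVP calves 3208, 3209, 5833 and 5841, and 13.3, 15.6 and 13.2 CPM in that of MOET calves 3217, 3218 and 5932. The IVP calves thus lay above the MOET calves in HEMK1, as in CISH and in 16.3% of all liver genes, and edgeR fitted a log2 fold change of 0.45 for it, with a standard error of 0.121 and an FDR of 0.125, smaller than that of CISH. In muscle its log2 fold change was -0.01.

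The genes whose liver pattern was most like that of CISH were sought among the 2922 named genes with at least 5 CPM, by Pearson's r over 7 calves without calf 3213. These were BTG1, an antiproliferative transcription cofactor (r = 0.99), TNFRSF4, the receptor OX40 of T cells (0.98), and UBE2Q1, a ubiquitin-conjugating enzyme (0.97). RAB5C, an endosomal GTPase (0.97), and IL1RN, the interleukin-1 receptor antagonist (0.97), followed. BTG1 lay between 120.5 and 134.3 CPM in IVP and between 74.5 and 85.4 CPM in MOET liver. The most opposite were MAPK6 (-0.98), an atypical MAP kinase with 28.5 to 40.2 CPM in IVP and 59.7 to 72.7 CPM in MOET liver, PI4K2B (-0.98), a lipid kinase, and TPCN2 (-0.97), a cation channel of lysosomes. These values are descriptions of 7 calves that fall into the IVP and MOET groups, and the distance between the groups enters each of them. The choice of genes depended on the measure. Of the 5 most like CISH in liver, 2 were also among the first 5 by Spearman's rho and 1 after centring each group, and in muscle it was 1 and 1.

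With that distance removed by centring each group, r with CISH was 0.95 for BTG1, 0.86 for TNFRSF4, 0.87 for UBE2Q1, 0.68 for RAB5C and 0.72 for IL1RN. Over all 7 calves, 70 named genes had r of at least 0.9 with CISH in liver and 97 had r of -0.9 or below, and after centring 4 genes had r of at least 0.9. In muscle BTG1 had an r of 0.39 with CISH, TNFRSF4 of -0.02, UBE2Q1 of -0.60 and RAB5C of -0.69, so that none of these 4 was among the genes most like CISH in both organs. The highest in muscle, among 2345 named genes, were MDC1, a mediator of the DNA damage response (0.93), ABI1, an actin regulator (0.88), NUP133, a nuclear pore protein (0.86), RBAK (0.86) and PLEKHO2 (0.83). The lowest were TBC1D7 (-0.90), ARL3 (-0.90) and NFIA (-0.89). Of these muscle genes MDC1 alone reached an r of 0.9, and its range of 9.65 to 11.2 CPM in IVP overlapped with the 7.93 to 10.3 CPM in MOET muscle.

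The daily weight gain of each calf, computed here from the birth weight, the weight at sampling and the age in the labels, is given beside liver CISH as values only, since the calves fall into separate groups. It was 0.99, 0.864, 0.748 and 0.929 kg per day in IVP calves 3208, 3209, 5833 and 5841 and 0.941, 0.735 and 0.731 kg per day in MOET calves 3217, 3218 and 5932. The gains of the groups overlapped where liver CISH did not, and the calf with the highest liver CISH, 3209, gained less than IVP calves 3208 and 5841.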

How the data were processed

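CISH, the pathway lists and the markers were chosen with earlier results of these data known. The authors filtered reads with SOAPnuke, aligned them with STAR (version 2.7) to bosTau9, assigned them without strand to Ensembl genes with HTSeq-count, and adjusted for age with sva. The model of that adjustment is not given in the sources used here. The deposited values are whole numbers and were treated as estimated counts where the design had assumed counts. Rounding changed no value, and 0 columns of values were left without a sample. The adjustment can change the level of a calf and its apparent spread. Names came from supplementary tables, which pair 4180 of the 27607 IDs with 1 symbol.

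In each organ genes passed filterByExpr (minimum count 10, minimum total 15), libraries were scaled by TMM, and IVP was compared with MOET by edgeR's quasi-likelihood test (version 4.0.16, R 4.3.3) with age in days and an FDR of 0.05. The organ difference was fitted over 16 libraries. P-values cover the spread between these calves. Intervals from counting cover counting error only. DESeq2 (version 1.42.0) served as an alternative, and Python 3.11.15 with matplotlib 3.10.9 for figures. The fits were tested on simulated data. Correlations used log2 CPM with a prior count of 2.

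Both organs came from the same calf, so the calf pairs them by design. Deviations from the group means, compared between the organs of a calf, had a correlation between -0.133 and 0.284 over 12007 genes, above 0.1 in 5 of 8 calves. Named genes were CISH, list genes with an unadjusted p under 0.05 in an organ or an FDR under 0.05 between the organs, key members of the pathway, the genes most like CISH (5 highest and 3 lowest r) and its 2 neighbours on each side. STAT2, TYK2, JAK1, STAT4, IGFBP3 and SAA4, outside this rule, were named after their values were seen, to complete their lists. Methylation data were not used here.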

Additional observations from a re-analysis of the deposited data

Results flagged for a closer look

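In the groups of 4 calves, CISH had no calf far from the others. Among CISH, its neighbour HEMK1 and the named pathway genes, 3 of 71 groups of 4 had a calf whose gap to its nearest neighbour, divided by the range of the group, was above Dixon's critical value at 95%, and chance gives about 1 in 20. They were IGFBP6 in IVP liver with calf 5841 as the highest (0.925), JAK2 in IVP liver with calf 5841 as the lowest (0.844) and PIAS2 in muscle of IVP calves with calf 5833 as the lowest (0.961). In liver calf 5841 had 21.2 CPM of IGFBP6 against 9.18 to 10.1 CPM in the other IVP calves, while its CISH was 53.0 CPM.

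The log2 difference between IVP and MOET calves differed between the organs, muscle minus liver, in IL2RA (1.95), SH2B3 (1.49), IGFBP5 (1.31), PTPN11 (1.24), JAK2 (1.22), IGFBP6 (-1.44) and PTPN6 (-0.77), each by edgeR's test of the difference itself at an FDR under 0.05. All these calls were lost when any of 5 calves was left out (IVP 3209 or 5833, MOET 3217, 3218 or 5932). In those fits nearly all calls over all genes were lost too, with 43, 77, 1, 0 and 0 left of 1370.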

How the results depend on the processing

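For CISH, the 15 alternatives in each organ and the 16 between the organs moved the log2 fold change by less than the SD between calves. That bound is wide and hard to exceed by leaving out 1 calf, so it does not show that the values are stable. In muscle the SD (0.48) was larger than the fitted change (0.29), and a fall to 0.0014 stayed within it. Leaving out calves gave 1.22 to 1.48 in liver, 0.0014 to 0.54 in muscle and -1.51 to -0.86 between the organs. All 442 fold changes of named genes under alternatives kept their sign, and 340 also kept their side of the threshold.

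The number of pathway genes at an FDR under 0.05 depended on the age term, on calf 3213 and on the tool. In liver it was 0 as reported, 11 without age, 8 by DESeq2 with age and 14 by DESeq2 without age, and 0 to 10 without 1 calf (10 without MOET calf 3213, 5 without IVP calf 5841). In muscle it was 0, 4, 1 and 6 under the same settings, and 0 without any calf. With MOET calf 3213 and age left out together it was 0 in liver and 0 in muscle. Over all genes edgeR gave 5 in liver and 60 in muscle with age, and 2998 and 1174 without. With calf 3213 and age left out together it gave 5 and 83. With age kept, edgeR gave 2187 of 14416 liver genes without MOET calf 3213 and 1219 of 14500 without IVP calf 5841. DESeq2 gave 1588 and 468 with age, and 4657 and 1619 without. Between the organs it was 7, 11 by DESeq2 without age, and 0 to 8 without 1 calf (0 without IVP calf 3209 or 5833 or MOET calf 3217, 3218 or 5932). Over all genes the reported fit called 1370, DESeq2 without age 4556, and the fits without those calves 43, 77, 1, 0 and 0. The cause was not tested.

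With the calf as a replicate block, 9 pathway genes differed between the organs, and 4 when an age term in muscle was added, an alternative chosen after seeing the data together with those for CISH between the organs and for HEMK1. Over all 15237 genes the counts were 3491 and 713. The block gave -1.08 for CISH, and -1.07 with the age term in muscle. Depth did not limit CISH, but names did, since most of the pathway had no ID here.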
